A study of Sus scrofa with 4 samples.

Results

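The genes that carry a hormone signal from a receptor to cyclic AMP and on to the nucleus were examined for histone H4 lysine 12 lactylation (H4K12la) in the liver of sows in late gestation. Members were the coding genes of the Sscrofa11.1 RefSeq annotation whose symbol names a G protein alpha, beta or gamma subunit, a regulator of G protein signalling (RGS), an adenylyl cyclase, a cyclic nucleotide phosphodiesterase, a protein kinase A subunit, a CREB, CREM or CRTC protein, or a RAPGEF exchange factor. This gave 104 of 16303 coding genes with a symbol, all of them on autosomes. No acyltransferase gene matched the symbol pattern, and the 3 transducin genes GNAT1, GNAT2 and GNAT3, which encode G protein alpha subunits, were kept. The symbols chose the members, and no measured value entered the rule. The members and the groupings within classes were, however, chosen with earlier results of these data known.

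The mark was measured by chromatin immunoprecipitation and sequencing. The low, or normal, bile acid group and the high bile acid group each had 1 immunoprecipitated library and 1 input library, 4 samples in all. All were labelled as liver, hepatocytes and female, and the antibody of the immunoprecipitated libraries was directed against H4K12la. The labels give neither the bile acid level that separates the groups nor the number of sows behind a library. With 1 library per group no test between the groups was possible, and no difference between the lists has a replicate check.

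A hormone such as glucagon or adrenaline binds a receptor in the cell membrane, and the receptor loads the alpha subunit of a G protein with GTP. The alpha subunit and the beta-gamma pair then part and act on enzymes. Stimulatory alpha subunits switch adenylyl cyclase on and inhibitory ones switch it off, while RGS proteins speed up GTP hydrolysis and so end the signal. Cyclic AMP is broken down by phosphodiesterases. It frees the catalytic subunits of protein kinase A, which phosphorylate CREB, and it activates the EPAC exchange factors. In hepatocytes this pathway is known for switching on gluconeogenic genes during fasting, with CRTC proteins as coactivators of CREB.

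The deposited data were 2 lists of narrow peaks, 28283 for the high and 5735 for the low group, so the high list was 4.93 times as long. Fold means the enrichment that the authors' peak caller gave at the summit relative to the background around it. The q-value is theirs too, an adjusted p-value for the peak against its own input. Few peaks were strong by that measure, since a q under 0.05 was reached by 2.15% of high-list and 0.227% of low-list peaks, and q was 1 for 97.4% of low-list peaks. A hepatocyte label could be set only against where the mark was called, because a peak is not expression. Of 32 markers of 6 liver and blood cell types, 3 had a high-list peak at the gene end (9.38%; all coding genes 18.4%). In the low list 0 did (all coding genes 3.58%). The 3 were TTR, a hepatocyte gene, CDH5, an endothelial gene, and SLC4A1, an erythroid gene. A high-list peak within 10 kb was present at 17 of the 32 markers (53.1%; all coding genes 62.8%). These were 5 of 10 hepatocyte, 0 of 4 cholangiocyte and 3 of 5 myeloid markers. The rest were 5 of 5 endothelial, 3 of 5 stellate and 1 of 3 erythroid markers.

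Peaks were placed in 3 windows: within 1 kb of either gene end (a gene-end peak), over the gene body, and within 10 kb of the gene. The annotation gave no strand, so 1 of the gene ends holds the start site but which one was not known. A gene-end peak was present at 18 of the 104 members in the high list (17.3%; exact 95% interval 10.6 to 26%), where 18.4% of all coding genes had one. In the low list 3 members had one (2.88%; 0.599 to 8.2%), where 3.58% of all coding genes did. The members were thus close to the background at their ends in both livers.

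A larger share of members than of all coding genes had a peak inside the gene, and the members were also longer. The median member was 77.3 kb long and the median coding gene 25.6 kb. A peak overlapped the body of 64 members in the high list (61.5%; 51.5 to 70.9%) against 45.4% of all coding genes, and of 26 members in the low list (25%; 17 to 34.4%) against 15.1%. When each member was given the share found among coding genes of its own length class (10 equal classes), the counts came to 59.7 members (high) and 25.1 members (low). Within 10 kb, 74 members had a high-list peak (71.2%; 61.4 to 79.6%; all coding genes 62.8%; 72.3 members from length), and 33 had a low-list peak (31.7%; 22.9 to 41.6%; all coding genes 22%; 30.9 members from length). Intervals cover counting error only.

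**Figure D1:**
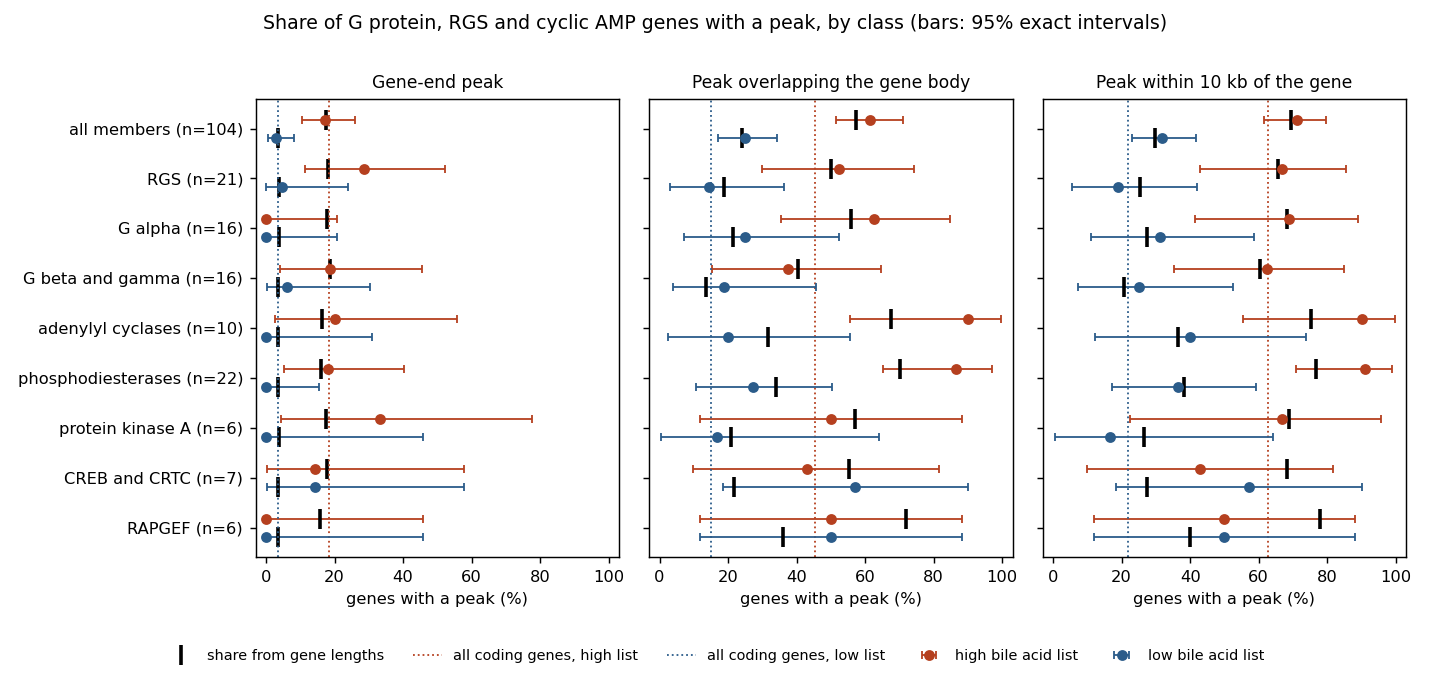
Percent of genes with a peak (x axis) for all members and each of 8 classes (y axis, with the number of genes), in 3 windows. Points are shares with exact 95% intervals, orange for the high and blue for the low bile acid list, black ticks are the shares found among coding genes of the same lengths, and dotted lines are all coding genes. Over all 104 members the points lie near the ticks, and G alpha genes sit at 0% in the gene-end window.

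RGS proteins, which switch G alpha subunits off, had gene-end peaks in the high list at 6 of 21 genes (28.6%; 11.3 to 52.2%), where their lengths gave 3.81. The genes were RGS3, RGS10, RGS12, RGS14, RGS16 and RGS22. By the usual grouping of the family, RGS10, RGS12 and RGS14 are the whole R12 group, which acts mainly on inhibitory alpha subunits. Thus 3 of 3 genes of that group were marked (29.2 to 100%), where length gave 0.557. The grouping was chosen with earlier results of these data known. With the high list cut to the length of the low list by smallest p, RGS12 alone of the 3 kept a gene-end peak (5.22% of coding genes). The R4 group of small RGS proteins had 2 of 10, RGS3 and RGS16, where length gave 1.88. High-list peaks were absent from the ends of all 4 R7 genes (0.671 from length) and all 3 RZ genes (0.559 from length). In the low list RGS20, an RZ gene, was the 1 RGS gene of 21 with a gene-end peak, where length gave 0.77.

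RGS3 carried the strongest peak of all members. It spans chromosome 1, 254078808 to 254079565, just inside the lower-coordinate end of the gene (254078618 to 254211805), with a fold of 4.79, a q of 0.00484 and 14 fragments at the summit (exact Poisson 95% interval 7.65 to 23.5) over 2.13 expected. By p it ranked 52 among the 28283 high-list peaks. The other 6 high-list peaks within 10 kb of RGS3 were weaker, with folds of 2.08 to 2.60. The low list held none within 10 kb.

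RGS12, a large protein that also binds other signalling molecules, was the most densely marked long member. Its gene-end peak lay at chromosome 8, 1970825 to 1971283, with a fold of 3.69 (q 0.0743), just outside the gene at 1971390 to 2074970. A further 8 high-list peaks lay in the body, or 77.2 peaks per Mb, where coding genes of its length class held 14 per Mb on average and 1.17% of them held as many as 8 peaks. The low list held 1 body peak, of fold 3.53 (q 1), at 2015488 to 2015844, and its summit was 2.72 kb from the nearest high-list summit.

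RGS16, a short gene of 5.94 kb on chromosome 9, was covered by 3 high-list peaks with folds of 2.56, 2.52 and 2.85 (q 0.5, 0.426 and 0.33). As many were held by 0.368% of the coding genes in its length class. Annotated long noncoding RNA genes lie over the outer 2 of these peaks, so they cannot be assigned to RGS16 alone. RGS8, its neighbour at 123937721 to 124053927, had 1 internal high-list peak of fold 4.08 (q 0.0431), and neither gene had a low-list peak within 10 kb.

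RGS10, a small RGS protein of immune cells and neurons, had a high-list peak of fold 3.17 (q 0.232) at its upper-coordinate end and another of 2.94 inside. RGS14 had a pair of peaks at its lower-coordinate end, with folds of 2.47 and 2.68, and RGS22 had a gene-end peak of 2.34. These were weak calls with q from 0.232 to 0.548. RGS20 carried its low-list peak inside the upper-coordinate end at chromosome 4, 77183952 to 77184382, with a fold of 3.21 (q 1). A separate high-list peak of fold 2.85 lay outside the gene, over an unnamed coding gene. RGS6, a brain and heart RGS protein of the R7 group, was marked inside the gene in both lists, by 4 high-list peaks with folds of 2.29 to 3.39 and 3 low-list peaks with folds of 2.37, 2.67 and 2.75. The low-list peak of 2.37 also lies over a noncoding RNA gene. RGS9, the R7 gene of the retina and striatum, had 4 high-list peaks in 72.7 kb, with folds of 2.35 to 3.21, and no low-list peak.

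RGS genes without any peak within 10 kb sat together on the chromosomes. RGS1, RGS2, RGS13, RGS18 and RGS21 lie within 603 kb of chromosome 10 (936836 to 1539776), and none of these 5 R4 genes had a peak within 10 kb in either list. The span as a whole, with 10 kb on either side, held 8 high-list peaks and 1 low-list peak, all of them farther from the genes. RGS4 and RGS5, the latter a gene of pericytes, lie side by side on chromosome 4 in a span of 104 kb that held 0 peaks in both lists. Chromosome 10 as a whole carried 12.9 high-list peaks per Mb and chromosome 4 carried 11.6.

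G alpha subunits set which enzyme a receptor reaches. None of the 16 genes had a gene-end peak in either list (0%; 0 to 20.6% in each), where length gave 2.85 genes (high) and 0.584 genes (low). The bodies were marked at about the level of other genes of their length, with 10 genes in the high list (8.94 from length) and 4 in the low list (3.43 from length).

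GNAS, the stimulatory alpha subunit that turns on adenylyl cyclase, had no high-list peak within 10 kb. It had 1 low-list peak of fold 2.55 (q 1), 3066 bp outside the gene and over a noncoding RNA gene. GNAL, the other stimulatory alpha subunit, known from olfactory neurons and the striatum, was marked at 6 internal sites in the high list. They lie in 86.9 kb of chromosome 6 (97342468 to 97429334), with folds from 2.34 to 4.08, and the strongest, at 97417147 to 97417506, had a q of 0.0431. The peak at 97360587 to 97361253, of fold 2.68, also lies at an end of CHMP1B, so it cannot be assigned to GNAL alone. As many peaks were found in 3.62% of coding genes of its length class. The low list had no peak within 10 kb of GNAL.

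Among the inhibitory alpha subunits, GNAI2, which is widely expressed, had 1 internal high-list peak of fold 2.89 (q 0.301). Another, of fold 2.44 on 13 fragments, lay 1001 bp beyond the gene and so just missed the gene-end window. GNAI1 had 2 internal high-list peaks, with folds of 2.68 and 2.78, and GNAI3 was without a peak within 10 kb. Inside GNAO1, the main alpha subunit of neurons, the lists held 1 peak each, of fold 2.98 (high) and 2.90 (low), and their summits were 22.3 kb apart. GNAZ had an internal high-list peak of 3.19, which also lies over RSPH14, so it cannot be assigned to GNAZ alone. Of the transducin genes, GNAT1 had 2 high-list peaks outside the gene (2.87 and 3.31), GNAT3 had 1 internal low-list peak (2.98), and GNAT2 had none.

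Of the alpha subunits that act on phospholipase C, GNAQ was marked inside the gene in both lists at separate sites. The high-list peaks had folds of 3.02 and 3.94 (q 0.33 and 0.0735), and the 3 low-list peaks had folds of 2.74, 3.03 and 2.34 (q 1 for each). As many as 3 low-list peaks were found in 6.07% of coding genes of its length class. GNA14, next to GNAQ on chromosome 1, had 3 internal high-list peaks of 2.08 to 2.90, GNA15 had 1 of 2.80, and GNA11 had none within 10 kb in either list. GNA12 and GNA13 had 4 and 1 internal high-list peaks, and GNA12 also had a low-list peak of fold 3.04.

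The beta and gamma subunits, which act as a pair, had gene-end peaks at 3 of 16 genes in the high list (18.8%; 4.05 to 45.6%; 3.01 from length) and at 1 in the low list. GNG2 had a fold of 3.31 (q 0.195) inside its lower-coordinate end, GNG13, a gamma subunit of taste and retinal cells, had 2.85 just outside its own, and GNB4 had 2.60. In the low list GNB1, the most widely used beta subunit, had a gene-end peak of fold 2.92 (q 1) that also lies over an unnamed coding gene. GNB1 further had 4 internal high-list peaks with folds of 2.86 to 3.55 and 1 internal low-list peak of fold 3.67.

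GNG7, a gamma subunit best known from the striatum, was marked inside the gene in both livers. In 154 kb of chromosome 2 (75929877 to 76083557) it had 5 high-list peaks, the strongest of fold 4.03 (q 0.0735), and 3 low-list peaks of fold 3.13, 3.83 and 2.86. As many as 3 low-list peaks were present in 1.41% of coding genes of its length class. That class runs from 85.9 to 156 kb, so GNG7 lies near its upper end. In the next class, from 156 kb up, 6.07% of coding genes held as many. The nearest pair of summits from the lists was 640 bp apart and the peaks did not overlap. GNB5, the beta subunit that pairs with R7 RGS proteins, had 1 internal low-list peak of 3.34 and 1 outside high-list peak of 2.93. GNB3 and GNG8 had high-list peaks outside the gene alone, led by folds of 3.41 and 3.64. The GNB3 peak of 3.41 lies over CDCA3. GNB2, GNG3, GNG5, GNG10 and GNG11, all under 10 kb long, lacked peaks within 10 kb.

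Adenylyl cyclases make cyclic AMP, and 9 of the 10 genes had a peak in the body in the high list (90%; 55.5 to 99.7%), where length gave 6.75. The 9 were all the transmembrane cyclases. The 1 soluble, bicarbonate-sensitive cyclase, ADCY10, was without a high-list peak and had a low-list peak of fold 2.45 outside the gene. In its length class 67.2% of coding genes had a high-list body peak, so this 1 gene shows no split by cyclase type. In the low list 2 of 10 had a body peak (3.17 from length), ADCY7 with a fold of 3.56 and ADCY9 with 3.10. With the high list cut to the length of the low list by smallest p, ADCY2, ADCY5 and ADCY9 alone kept body peaks (16.1% of coding genes).

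ADCY5, a cyclase of heart and striatum that calcium inhibits, held 9 internal high-list peaks in 168 kb of chromosome 13 (136965746 to 137133795), the highest number among the members. Their folds ran from 2.08 to 3.69 and their q from 0.13 to 0.711, so each was a weak call. Coding genes of its length class held as many in 8.89% of cases, and the low list had no peak there. ADCY2 had 8 internal high-list peaks and a gene-end peak of fold 2.86 in 424 kb. ADCY6, the close relative of ADCY5 that hepatocytes are known to use, had a gene-end peak of fold 2.86 (q 0.326) and an internal peak of 2.60 in the high list and no low-list peak. ADCY9 had 5 internal high-list peaks led by a fold of 3.42. The nearest of them had its summit 3.92 kb from that of the low-list peak.

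Phosphodiesterases break cyclic nucleotides down. Gene-end peaks were called at 4 of 22 genes in the high list (18.2%; 5.19 to 40.3%; 3.54 from length) and at 0 in the low list (0 to 15.4%; 0.765 from length). They were at 3 of the 8 genes whose enzymes cleave both cyclic AMP and cyclic GMP (PDE1B, PDE3A and PDE3B; 1.21 from length). Of the 8 genes for cyclic AMP 0 had one (1.28 from length). In the cyclic GMP group, which took in PDE6D by its symbol alone, 1 of 6 genes had one, PDE6B (1.05 from length).

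PDE3B, the isoform through which insulin lowers cyclic AMP in liver and fat, had 2 high-list peaks at its upper-coordinate end on chromosome 2. That at 44614246 to 44614540, just outside the gene, had a fold of 3.94 (q 0.0603) on 12 fragments, and that at 44612790 to 44613237, just inside, had 3.12 (q 0.232). Its 1 low-list peak, of fold 3.52 (q 1), lay 202 kb away beyond the opposite end. PDE3A had a gene-end peak of 2.68 on 7 fragments. PDE1B, which calcium and calmodulin activate, had a pair at its lower-coordinate end with folds of 2.63 and 3.09. The PDE6B peak, of fold 2.34, also lies at the end of ATP5I.

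Gene bodies of phosphodiesterases were marked in 19 of 22 genes in the high list (86.4%; 65.1 to 97.1%; 15.4 from length) and in 6 of 22 in the low list (27.3%; 10.7 to 50.2%; 7.45 from length). Per length they held 9.74 high-list peaks per Mb of gene (7.39 to 12.6), and coding genes of those lengths gave 11.2. PDE9A, which is specific for cyclic GMP, had the highest fold inside a gene of the class, 4.03 (q 0.0735). PDE1C had 8 internal high-list peaks in 592 kb, led by a fold of 3.68, and PDE8B had 7, led by 3.36. PDE6A had a peak of 3.80, but this was 9816 bp outside the gene and at an end of SLC26A2. PDE4A had only a low-list peak of 3.02 outside the gene, over a noncoding RNA gene, and PDE6D had none.

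PDE4D, the longest member at 1509 kb, was the 1 member of 104 with 5 low-list peaks in its body. That made 3.31 per Mb, where its length class, in which the mean gene is 353 kb long, held 2.18 per Mb. Their folds were 2.74, 3.64, 3.04, 3.64 and 3.78 (q 1 for each). Its 7 high-list peaks had folds of 2.84 to 3.41. Per length the gene held 4.64 high-list peaks per Mb against 10.4 in its length class, which runs from 156 to 3460 kb. As many as 7 high-list peaks were held by 16.6% of coding genes in that class, and as many as 5 low-list peaks by 0.92%. A high-list and a low-list peak came within 121 bp of each other at chromosome 16, 38076616 to 38076910 and 38077031 to 38077444, without overlap. PDE7B, also specific for cyclic AMP, had 6 high-list peaks and a low-list peak of 3.36 inside the gene. Its high-list peaks of fold 2.6 and 3.39 also lie over MTFR2.

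Of the protein kinase A genes, PRKACB, which encodes a catalytic subunit, had a high-list peak of fold 3.69 (q 0.0743) at the very end of the gene, at chromosome 6, 129636065 to 129636362, on 12 fragments. PRKACA, the main catalytic subunit of liver, had no peak in its body. Its 2 high-list peaks, of fold 3.31 and 2.39, lay 2909 and 5133 bp outside and over the neighbours ASF1B and C2H19orf67. PRKAR1B had a gene-end peak of 2.50 and an internal peak of 3.12 in the high list, and PRKAR2A had 1 internal peak in each list (2.45 high, 2.89 low). PRKAR1A, the regulatory subunit that restrains the kinase most broadly, and PRKAR2B had none within 10 kb in either list. In all 2 of 6 had a high-list peak at a gene end (1.05 from length) and 0 in the low list.

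CRTC3, a coactivator that enters the nucleus and binds CREB when cyclic AMP is high, was the 1 member of 104 with overlapping peaks in both lists. At least 1 such overlap within 10 kb was present at 1.18% of all coding genes. The high-list peak spans chromosome 7, 53147013 to 53147389, with a fold of 3.98 (q 0.0399) on 13 fragments over 2.52 expected. The low-list peak spans 53147000 to 53147339, with a fold of 3.95 (q 0.83), also on 13 fragments, over 2.15 expected. Those 13 are counted before the low pileup was multiplied by 0.881, and the 2.15 is after it. The peaks of the lists share 327 bp, their summits are 30 bp apart, and both lie inside the lower-coordinate end of the gene (53146317 to 53255985). CRTC3 was also the 1 member whose ends were marked in both lists, as were those of 0.883% of coding genes. Its other 4 high-list peaks, of fold 2.59 to 3.35, lay 77.8 to 92.2 kb into the gene and had no low-list counterpart.

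CREB1 and CREM had peaks in the low list alone, and CREB5 had peaks in both lists at separate sites. CREB1, which encodes the factor that protein kinase A phosphorylates, had 1 internal low-list peak of fold 3.27 (q 1) at chromosome 15, 110711171 to 110711469, and no high-list peak within 10 kb. CREM, its relative that includes a cyclic AMP-induced repressor, had low-list peaks of fold 2.73 inside and 2.45 outside the gene and none in the high list. The outside peak lies over CUL2. CREB5 had 3 internal high-list peaks (2.85, 2.98 and 2.93) and 2 internal low-list peaks (3.04 and 3.20). CRTC1 had 3 high-list peaks within 10 kb, of fold 2.44 to 2.92, and that of 2.92 lies outside the gene over COMP. CRTC2, the coactivator best known for gluconeogenesis in liver, and CREB3 lacked peaks within 10 kb in both lists. Body peaks were thus called at 3 of these 7 genes in the high list (3.88 from length) and at 4 in the low list (57.1%; 18.4 to 90.1%; 1.52 from length).

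RAPGEF exchange factors load the small G proteins of the RAP family, and RAPGEF3 and RAPGEF4 are the EPACs that cyclic AMP binds. None of the 6 had a gene-end peak in either list (0 to 45.9% in each), where length gave 0.945 genes (high) and 0.206 genes (low). RAPGEF4 had 7 internal high-list peaks in 321 kb, with folds of 2.08 to 3.02, and 1 internal low-list peak of 2.63. RAPGEF5 had 3 internal high-list peaks led by 3.02 and 1 low-list peak of 2.98, and RAPGEF1 had 3 high-list peaks led by 3.36. RAPGEF6 had 1 low-list peak of 2.98 and none in the high list, while RAPGEF2 and RAPGEF3 had none within 10 kb in either.

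**Figure D2:**
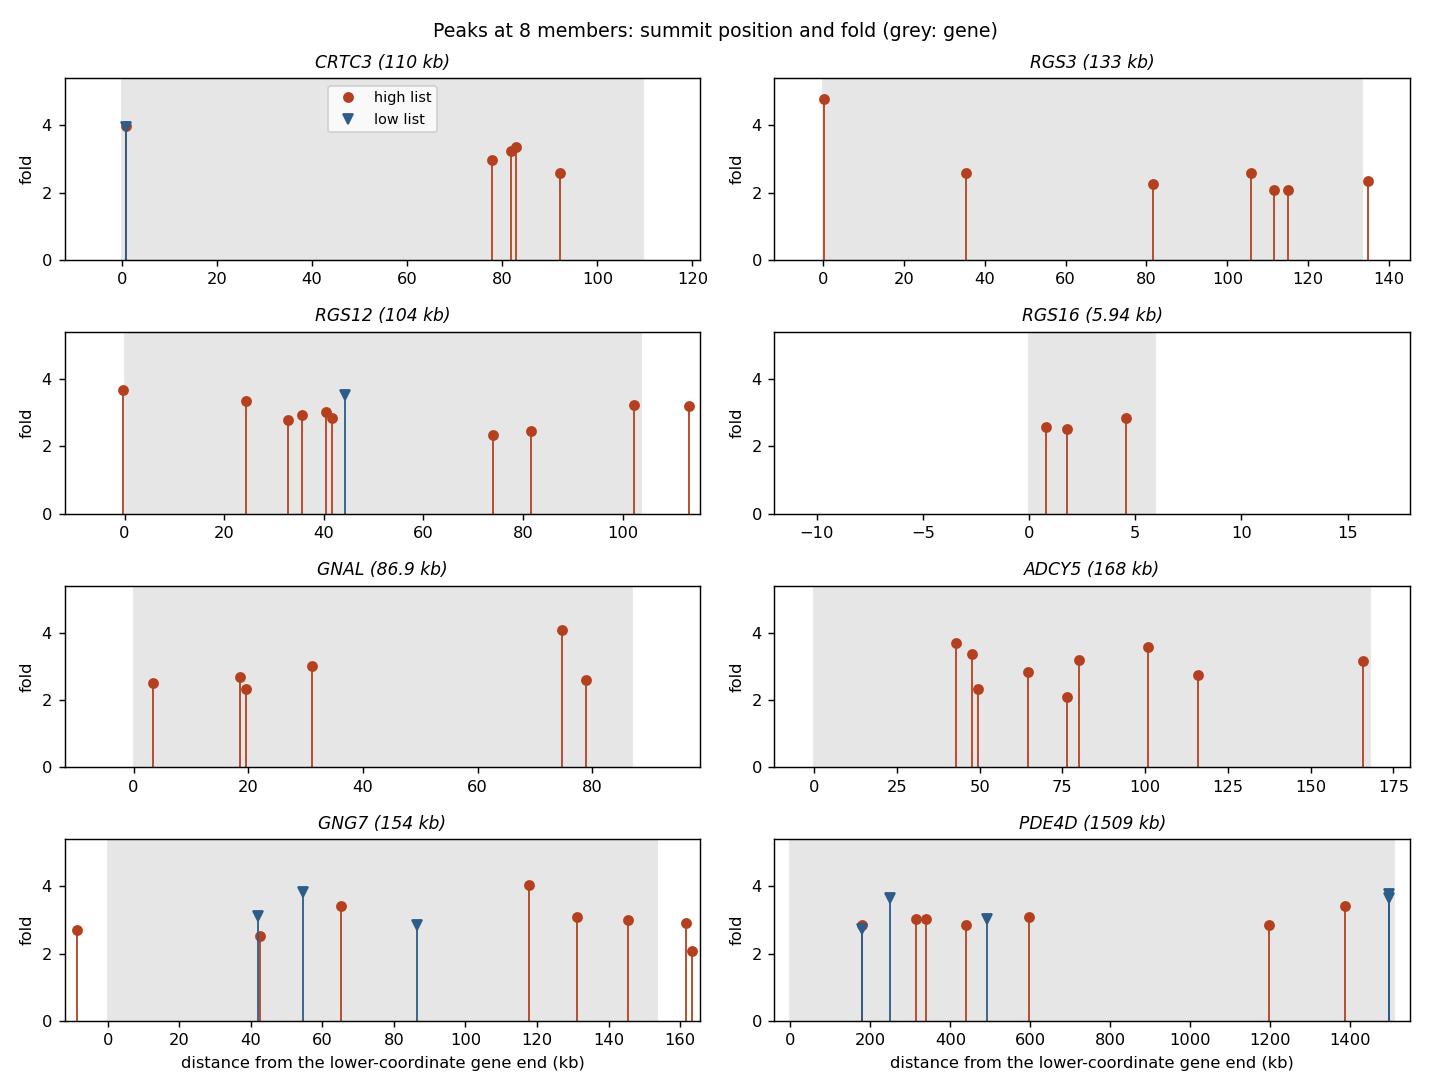
Peaks within 10 kb of 8 members, by distance of the summit from the lower-coordinate gene end (x axis, kb) and fold over the local background (y axis), with the gene in grey. Orange circles are high-list and blue triangles low-list peaks. The CRTC3 summits of the lists coincide within 30 bp at a gene end, while no low-list peak of GNG7 or PDE4D overlaps a high-list peak, the closest summits being 640 and 379 bp apart.

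A call in one library without a call in the other depends on a threshold, so the fragments behind the calls were compared. Member peaks rested on 6 to 14 fragments in the high list and on 7 to 15 in the low list. For each peak, the smallest fragment count giving a call in the other library over the same expected number was computed. At RGS3 the interval of the high-list count, 7.65 to 23.5, lay above the 7 fragments needed for a low-list call. It was the 1 of 240 high-list member peaks without an overlap for which this held, against 0.299% of all such high-list peaks. In the other direction it held for 3 of 47 low-list member peaks without an overlap, against 6.8% of all such low-list peaks. These were at GNG7 (14 fragments, 7 needed), RGS12 (12, 6 needed) and PDE4D (12, 6 needed). Low-list counts are before the low pileup was multiplied by 0.881, and their expected numbers are after it. That comparison, its background share included, thus mixes scales and does not show that these 3 counts clear the need. The members' counts were thus near the background in both directions, and the other library's own counts at these sites were not used here, so no difference between the libraries is shown at any of these peaks.

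**Figure D3:**
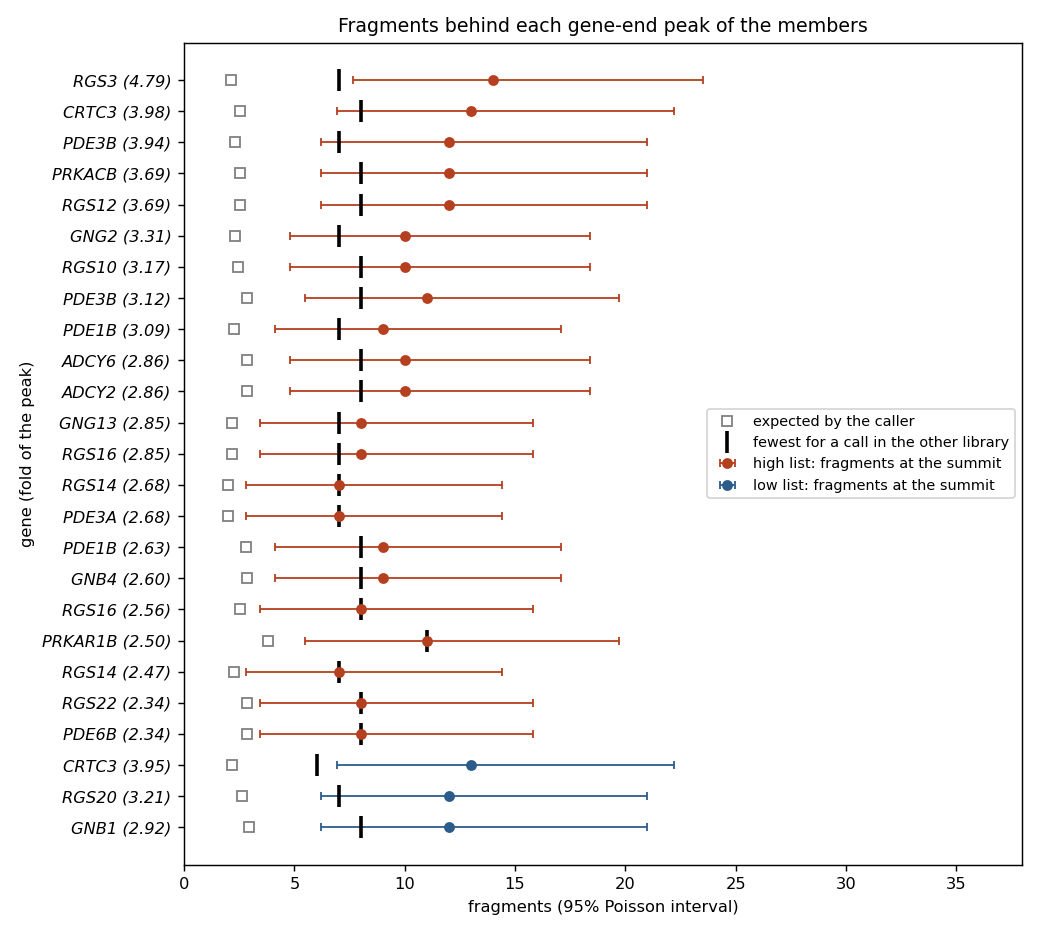
Fragments at the summit (x axis, with exact Poisson 95% intervals) for every gene-end peak of a member, named with its fold (y axis), orange for the 22 high-list and blue for the 3 low-list peaks. Squares are the expected numbers and black ticks the fewest fragments for a call in the other library. The interval clears the tick at RGS3 in the high list. At CRTC3 in the low list it also lies above the tick. Low-list fragments, however, are counted before the low pileup was multiplied by 0.881, and the expected numbers behind their ticks are after it.

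The 241 high-list peaks within 10 kb of members had a median fold of 2.86, against 2.90 for the whole list, and 5 of them (2.07%) had a q under 0.05, against 2.15%. RGS3, CRTC3, GNAL and RGS8 held such a peak inside the gene. The 49 low-list peaks had a median fold of 2.98, as had the whole list, and none had a q under 0.05. At that threshold 5 members had a high-list peak within 10 kb (3.6% of coding genes), 4 had one in the body (2.16% of coding genes) and 2 had one at a gene end (0.816% of coding genes). In the low list 0 members had one within 10 kb or in the body, where 0.0613% and 0.0307% of coding genes did. A fold of 4 or more was reached by a high-list peak at a gene end of 1 member (0.994% of coding genes), in the body of 5 (2.93%) and within 10 kb of 6 (4.65%). No low-list peak of a member reached it, where 0.092%, 0.233% and 0.337% of coding genes had such a peak in these windows.

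Most member peaks lay inside the genes and away from their ends. Of the 241 high-list peaks, 22 were at a gene end, 178 elsewhere in the body and 41 in the flank, and of the 49 low-list peaks the numbers were 3, 36 and 10. Summits inside a gene were a median of 36.5 kb (high) and 44.7 kb (low) from the nearest gene end, and 38.7% and 44.7% of them were over 50 kb away. These placements were not set beside those in other coding genes, and the median member was 77.3 kb long, so they show no trait of the members. Over 13.7 Mb of member genes there were 14.1 high-list peaks per Mb (12.1 to 16.2), where genes of those lengths gave 12.5, and 2.78 low-list peaks per Mb (1.97 to 3.82), where they gave 2.6. All coding genes together held 14.8 and 2.92 per Mb. By class, adenylyl cyclases had 22.2 high-list peaks per Mb (15.1 to 31.5; 12 from length), G beta and gamma genes 21.7 (12.6 to 34.7; 16.2 from length) and RGS genes 19.4 (13.7 to 26.7; 13.7 from length). Protein kinase A genes had 9.23 (2.51 to 23.6; 15.7 from length), and the G alpha, CREB and CRTC, and RAPGEF genes had 16.8, 12.9 and 11.9 (14.3, 13.1 and 11.5 from length). In the low list G alpha genes, on 6 peaks, had 4.58 per Mb (1.68 to 9.97; 2.84 from length). G beta and gamma genes, on 5 peaks, had 6.37 (2.07 to 14.9; 3.21 from length). CREB and CRTC genes, on 5 peaks, had 6.47 (2.1 to 15.1; 2.68 from length). Each of these intervals covers the value from length. RGS and RAPGEF genes had 2.62 and 2.74 (2.82 and 2.46 from length). Adenylyl cyclases, on 2 peaks, had 1.43 (0.173 to 5.17; 2.53 from length). Phosphodiesterases and protein kinase A genes had 1.85 and 2.31 (2.37 and 3.36 from length).

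**Figure D4:**
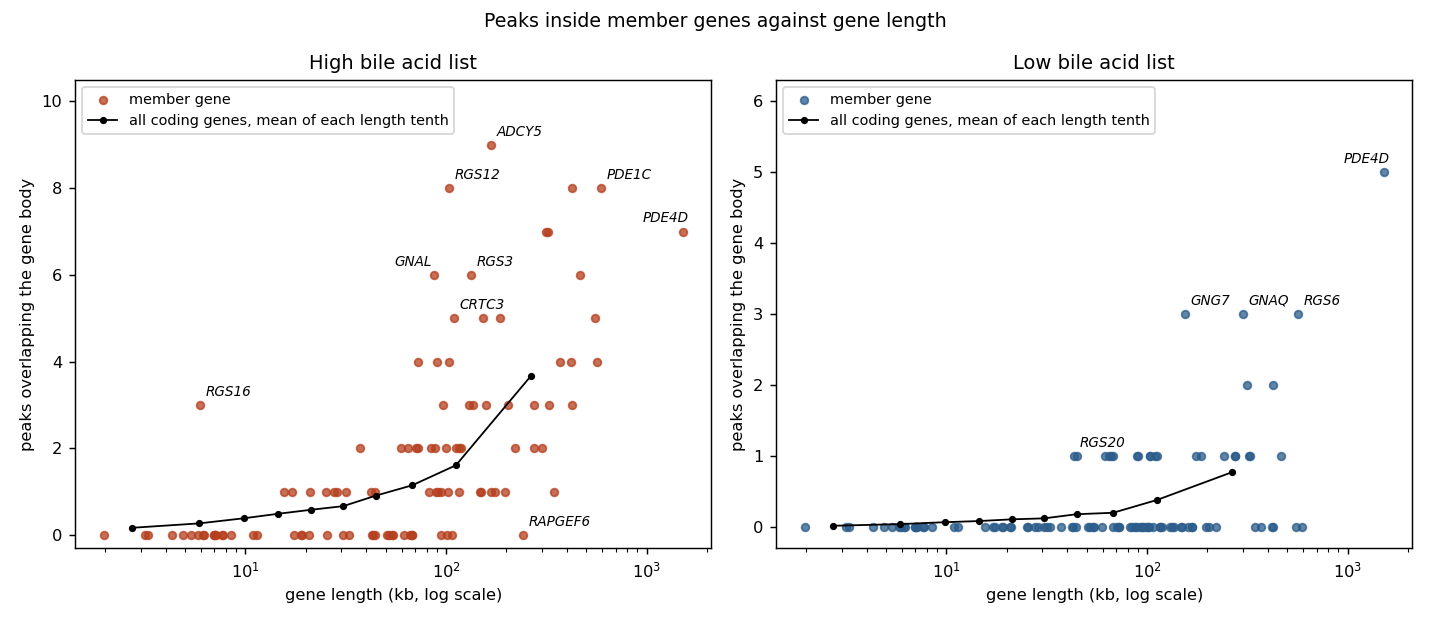
Peaks overlapping the gene body (y axis) against gene length (x axis, kb, log scale) for the 104 members in each list. The black line joins the mean of all coding genes in each length class. RGS16, RGS12, GNAL and ADCY5 lie above the line in the high list, and GNG7 in the low list. GNAQ and RGS6, which are longer, also held 3 low-list peaks each.

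Peaks of the lists could be near the same gene and still at separate sites. Of the 104 members, 25 had peaks within 10 kb in both lists (all coding genes 16.6%; 25.5 members from length), 49 in the high list only (46.2%; 46.9 from length), 8 in the low list only (5.42%; 5.48 from length) and 22 in neither (31.8%; 26.2 from length). The 8 were GNAS, GNAT3, GNG14, ADCY10, PDE4A, CREB1, CREM and RAPGEF6. Among the 25, the closest high-list and low-list summits were a median of 13.2 kb apart, and they were within 1 kb at CRTC3, PDE4D and GNG7. At RGS19 a low-list peak 9957 bp outside the gene overlapped a high-list peak that itself lay beyond the 10 kb flank. The high list was also shortened to the length of the low list by smallest p. Gene-end peaks then stood at 6 members (5.22% of coding genes) against 3 in the low list (3.58%), body peaks at 28 (16.1%) against 26 (15.1%), and peaks within 10 kb at 35 (24%) against 33 (22%). The 6 were RGS3, RGS12, CRTC3, PRKACB, GNG2 and PDE3B.

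The 22 members without a peak within 10 kb in either list were short, with a median of 14.4 kb against 98.3 kb for the other 82. The longest were PRKAR2B, at 106 kb, and RAPGEF2. Gene pairs that arose by duplication and lie close together were also counted. GNAI3 and GNAT2 on chromosome 4 had 0 peaks in their span of 67 kb or within 10 kb of it. GNAI2 and GNAT1 on chromosome 13 had 4 high-list and 0 low-list peaks in their span of 62.4 kb, and 1 more high-list peak lay in the flank. Of the 4, that at 32718748 to 32719168 lay inside GNAI2. That at 32681541 to 32682008 lay between the genes. So did those at 32687852 to 32688262 and 32699126 to 32699520, which lie over SLC38A3. GNAQ and GNA14 had 8 high-list and 3 low-list peaks in 565 kb.

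Other genes of the pathway, taken from a list of receptors, receptor kinases, anchors, inhibitors, coactivators and target genes, were counted in the same way. Of 75 found, 14 had a high-list peak at a gene end (18.7%; all coding genes 18.4%) and 4 in the low list (5.33%; all coding genes 3.58%). Among 28 receptors 7 had a high-list and 0 a low-list one. They were the adrenaline receptors ADRB1 (fold 3.01), ADRA1A (3.09) and ADRA1D (3.16), the adenosine receptors ADORA1 (2.34) and ADORA3 (2.83), SCTR for secretin (2.85 and 2.56) and PTH1R for parathyroid hormone (2.86). GCGR, the glucagon receptor, had no gene-end peak but 3 high-list peaks within 10 kb, the strongest of fold 4.01, and the bile acid receptor GPBAR1, which couples to cyclic AMP, had 1 of 2.65 within 10 kb.

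The receptor kinases GRK2 (2.78) and GRK6 (3.90, q 0.0349) had high-list gene-end peaks. So had PLCB1 (4.03, q 0.0735), a phospholipase C that GNAQ activates, RGS9BP (3.16), which anchors RGS9, the anchor AKAP6 (2.52), CREBBP (2.60), a coactivator of CREB, and NR4A2 (3.77, q 0.0845), a CREB target. The 4 low-list genes were the anchors AKAP8 (3.38), AKAP10 (2.63) and AKAP11 (2.89) and RIC8B (2.71), a chaperone of stimulatory alpha subunits, each with a q of 1. Of 16 anchors and inhibitors of protein kinase A, 3 thus had a low-list gene-end peak (18.8%; all coding genes 3.58%). A high-list one was present at 1 (6.25%; all coding genes 18.4%). Of the gluconeogenic targets, PCK1 had 2 high-list peaks within 10 kb, led by a fold of 4.36, and none at its ends.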

How the data were processed

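H4K12la immunoprecipitates and inputs came from 1 library each per group. MACS2 2.1.0 and Bowtie 1.1.2, as well as Trimmomatic 0.33 and bcl2fastq 2.17, are named in the submitters' processing notes, with the builds hg38 and Sscrofa11.1. The largest peak coordinate of nearly every chromosome lay near the last Sscrofa11.1 gene, so pig coordinates were used. The authors deposited, for every peak, its fold (a ratio to local background) with p-value and q-value, both as −log10. The deposited score repeats the p-value and was not used, and the summit offset in bp is another deposited value. The threshold for calling a peak was not given in the sources used here and was taken as 0.01, since p-values reached 0.00989 at most.

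Gene positions are those of RefSeq on Sscrofa11.1. Symbols listed more than once were kept once, and provisional LOC names were dropped. Windows counted an overlap of at least 1 bp. Expected counts from length used 10 equal classes of gene length. Fragments at each summit were solved from fold and p-value, within 0.002 in −log10 p, for 99.996% of high-list and 99.983% of low-list peaks, with the low library's pileup multiplied by 0.881. Library totals were not used here, and precision is given by exact Poisson and Clopper-Pearson 95% intervals. The calculations were tested on simulated data. Python 3.11.15, pandas 2.3.3 and scipy 1.17.1 were used.

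The members, the lists and the groupings within classes were chosen with earlier results of these data known. The rule for named genes took members with a gene-end peak, members with peaks in both lists, the 3 of highest fold within 10 kb in each class and list, and fixed genes including GNAS, PRKACA, CREB1 and CRTC2. Other members named were chosen after their values were seen. The planned count of cyclic AMP response elements in promoters was not run, because no sequence was used here. Of 78 other pathway symbols 75 were found. The surroundings of 1 member peak outside a gene are not reported here.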

Additional observations from a re-analysis of the deposited data

How the results depend on the processing

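All alternatives were planned. No paired analysis was possible because there is a lone immunoprecipitate on either side, so no replicate could be left out. With peaks of q under 0.05, members with a gene-end, body or 10 kb peak numbered 2, 4 and 5 in the high list and 0, 0 and 0 in the low list, as follows from the shorter lists. With a fold of 4 or more they numbered 1, 5 and 6 in the high list (0.994, 2.93 and 4.65% of coding genes) and 0, 0 and 0 in the low list (0.092, 0.233 and 0.337%). The high list shortened to the low list gave 6, 28 and 35 (5.22, 16.1 and 24% of coding genes). A gene-end window of 3 kb gave 5 members in the low list (6.66% of coding genes). Summits within 0.5 kb in place of overlap gave 2 members, CRTC3 and PDE4D (1.36% of coding genes). Counts stayed within 1.5 times with the summit inside the window, with a flank of 25 kb, with peaks at the ends of several genes dropped, and with the 3 kb window in the high list (25 members, where 31.3% of coding genes had a peak). Each member call rests on 6 to 15 fragments, and 1 library per group means that sow, library and bile acid level cannot be told apart.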
